A study of Mus musculus with 8 samples.

Results

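The genes described here are 41 mouse genes of homologous recombination, of the Fanconi anaemia pathway for DNA crosslinks and of the kinase checkpoints that respond to damaged or stalled DNA. They were chosen by name and not by a rule on their values, but with earlier results of these data known. All 41 were found among the 47643 genes of the expression tables. For the account they were sorted by role into end resection (7 genes), the BRCA1 and BRCA2 proteins (5), the strand exchange genes, meaning the RAD51B to XRCC3 family with RAD51AP1 and the RAD54 proteins (8), the Fanconi core complex with UBE2T (9), FANCD2, FANCI and USP1 (3), the junction nucleases (3) and the checkpoint (6).

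The study asked how peritoneal macrophages respond to apoptotic cells, and measured their mRNA with a 3′-end RNA-Seq method that tags molecules with unique identifiers. Macrophages of C57 BL/6 mice either received 10 nM B/B Homodimerizer alone (MΦ+Dimerizer, called control below, 4 libraries) or shared a transwell at equal numbers with NIH 3T3 FV-hCasp8 fibroblasts and received the same dimerizer (MΦ+FV-Casp8+Dimerizer, called co-culture below, 4 libraries). In the co-culture, 500000 macrophages per well were kept overnight with the fibroblasts across a membrane with 5 μm pores before the dimerizer was added, and RNA was taken 48 h later. The dimerizer joins copies of a human caspase-8 that the fibroblasts carry from a lentivirus, which starts apoptosis in them, and the fibroblast lines are single clones. The replicates were macrophages from individual animals, and the sources used here state no age or sex for them. Fibroblasts that stay alive were in none of the libraries analysed, so that the presence of fibroblasts and their death cannot be told apart. All 8 libraries contained the dimerizer.

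Homologous recombination repairs a double-strand break by copying the sister chromatid. Nucleases cut the ends back to single strands, on which a protein filament is built with the help of BRCA2, and the filament invades the intact duplex. The Fanconi core complex is a ubiquitin ligase that marks FANCD2 and FANCI where crosslinks stall replication forks, and the kinases ATM and ATR, through CHK2 and CHK1, hold the cell cycle until repair is done. Because these reactions need a sister chromatid or a replication fork, many of the genes are known to be transcribed mostly in S and G2 phase of dividing cells. Resident peritoneal macrophages are mature phagocytes of which few divide at rest.

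Values below are normalized counts, that is, whole reads divided by a size factor for each library. The libraries held 5904441 to 8932884 reads in the control and 6954153 to 11506556 in the co-culture. Fold changes are differences of mean log2(normalized count + 1), co-culture minus control, from limma, which was fitted to 12029 genes (mean over the libraries 10 or more). A gene was called at an adjusted p under 0.05 (Benjamini-Hochberg, over all genes tested). In bulk RNA a change in the number of cells that express a gene and a change in its RNA per cell cannot be told apart.

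Of the 41 genes, 39 were tested. Among these, 22 were called higher in the co-culture and 1 lower, and the other 16 did not reach the threshold. Over all genes tested, 15.0% were called higher and 13.7% lower (28.7% in either direction). The median log2 fold change of the 39 was 0.68, against 0.01 over all genes tested, and 14 of them rose at least 2-fold, which 3.97% of all genes tested did. All 4 co-culture libraries lay above all 4 control libraries for 21 of the 39 and below them for 1, where 15.3% and 14.1% of all genes tested did so. Rad51c, Rad54b and Eme1 had a control mean under 10 and so passed the filter through their co-culture level. Without these, 19 of 36 were higher with a median of 0.54, and 14.6% of all genes with a control mean of at least 10 were called higher. The groups with most of their members higher were the BRCA1 and BRCA2 proteins (4 of 5), the strand exchange genes (5 of 7 tested) and the checkpoint (4 of 6), while 3 of 7 resection genes and 4 of 9 Fanconi core genes were.

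**Figure D1:**
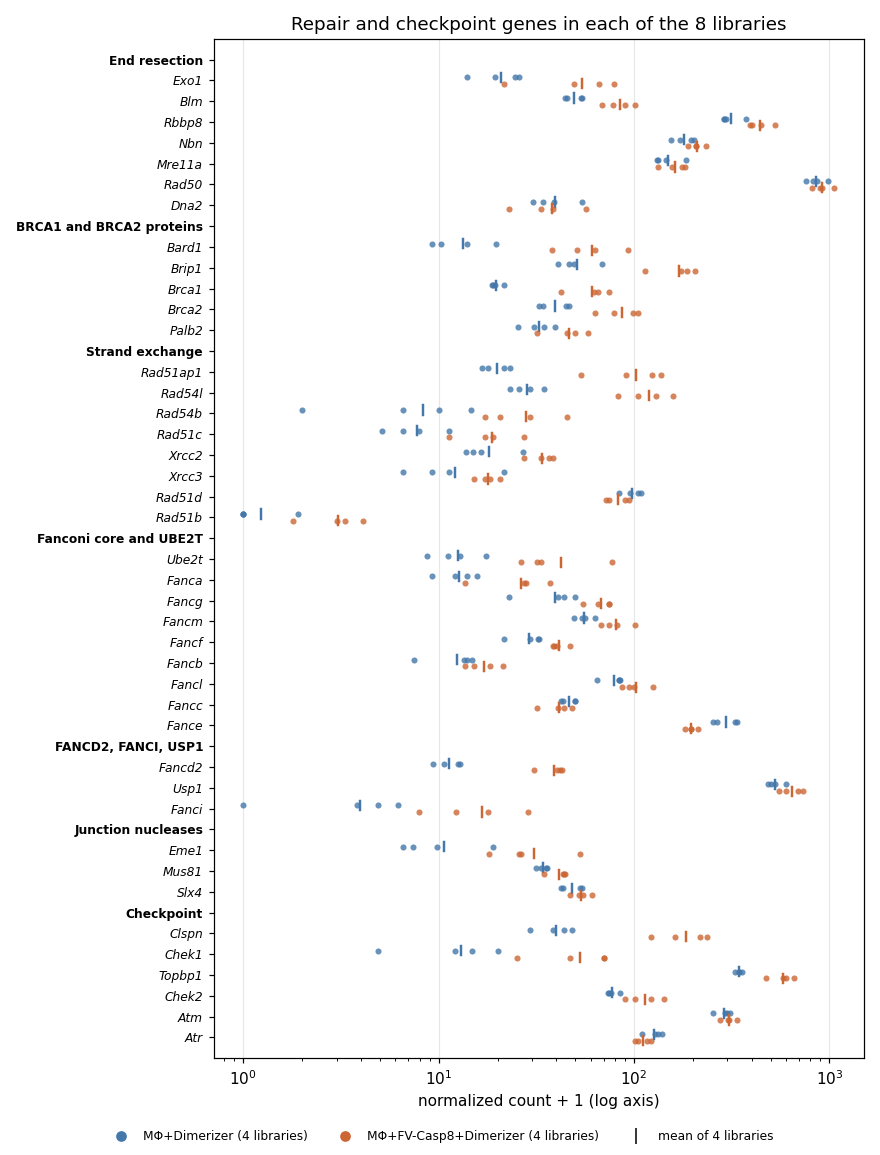
Normalized count plus 1 of the 41 genes on a log axis, with 1 point per library (blue, MΦ+Dimerizer; orange, MΦ+FV-Casp8+Dimerizer; 4 libraries each) and a vertical bar at each group's mean. The groups stand apart for genes such as Clspn and Brip1, overlap for genes such as Rad50 and Atm, and are reversed for Fance.

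**Figure D2:**
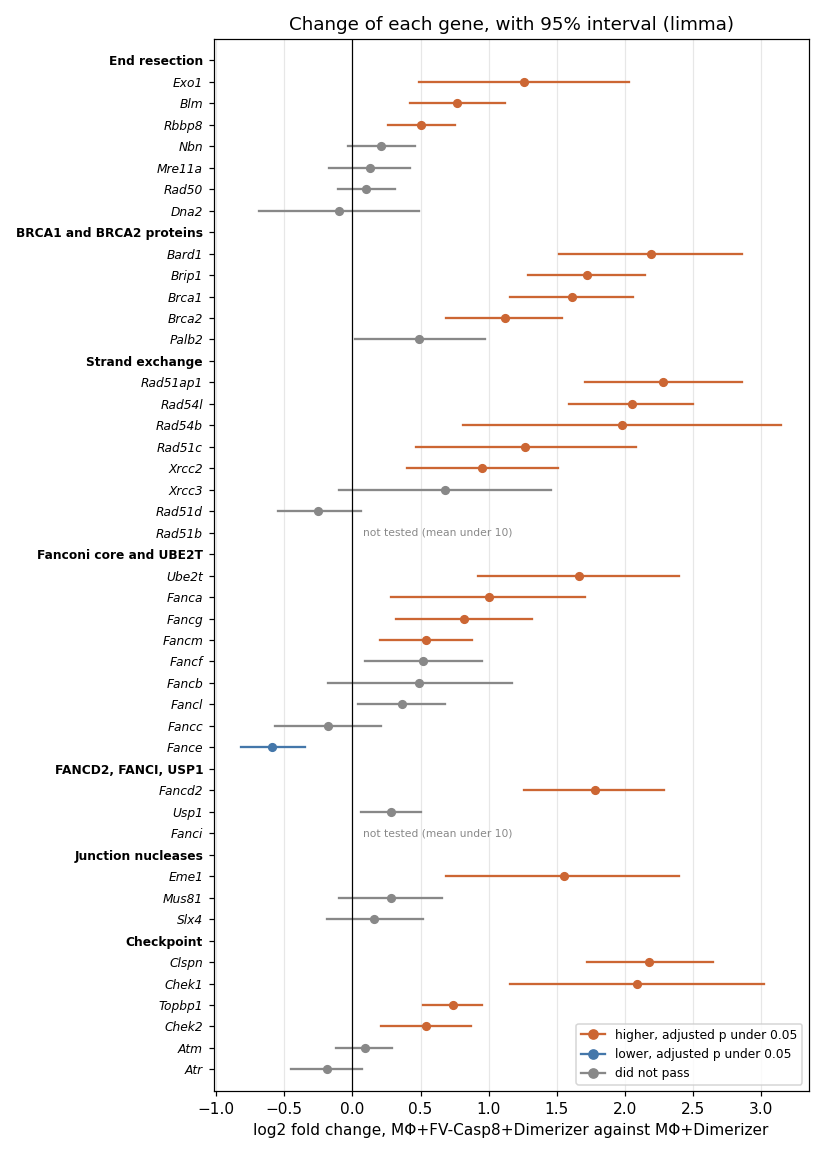
Log2 fold change of each tested gene with its 95% interval from limma, sorted within role. Among the 39 genes, 22 were called higher (orange), 1 lower (blue) and 16 did not pass (grey).

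End resection begins with the nuclease complex of MRE11, RAD50 and NBS1, whose partner CtIP, encoded by Rbbp8, starts the cut. EXO1 and DNA2 then extend the single strand, the latter with the helicase BLM. The later-acting Exo1 and Blm and the initiator Rbbp8 rose, and the genes of the nuclease complex did not pass. Exo1 (ENSMUSG00000039748, chr1:175880581-175913489, plus strand) had normalized counts of 24.7, 12.9, 18.5 and 23.6 in control replicates 1 to 4 and 20.7, 78.1, 65.1 and 48.5 in the co-culture. Only co-culture replicate 1 fell within the control range, and the log2 fold change was 1.26 (SE 0.36, adjusted p = 0.018). The call was lost without co-culture replicate 2 (adjusted p = 0.0625) or 3 (0.0586). Blm (ENSMUSG00000030528, chr7:80454733-80535119, minus strand) stood at 52.2, 52.9, 44.4 and 43.2 in the control and 67.8, 89.4, 100.7 and 76.9 in the co-culture. Its groups did not overlap, and its log2 fold change was 0.77 (SE 0.16, adjusted p = 0.00291). Rbbp8 rose by 0.50 (SE 0.11, adjusted p = 0.005) on the log2 scale, again without overlap.

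The 3 genes of the nuclease complex had overlapping groups. Log2 fold changes were 0.13 (SE 0.14, adjusted p = 0.546) for Mre11a, 0.10 (SE 0.10, adjusted p = 0.464) for Rad50 and 0.21 (SE 0.11, adjusted p = 0.178) for Nbn, with 95% intervals of -0.17 to 0.42, -0.11 to 0.31 and -0.03 to 0.46. Dna2 was the 1 resection gene with an estimate below 0. It had 33.0, 52.9, 38.0 and 29.5 in the control and 21.8, 55.6, 37.6 and 32.4 in the co-culture, with full overlap and a log2 fold change of -0.10 (SE 0.27, adjusted p = 0.83). Its interval, -0.69 to 0.49, lay below the estimates for Rbbp8, Blm and Exo1. Differences between genes were not tested, here and below.

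BRCA1 and BARD1 form a heterodimeric ubiquitin ligase at broken DNA, PALB2 joins BRCA1 to BRCA2, and BRIP1 is a helicase that binds BRCA1. Bard1, Brip1, Brca1 and Brca2 all rose and Palb2 did not pass. Bard1 (ENSMUSG00000026196, chr1:71027498-71103146, minus strand) went from 8.2, 12.9, 9.3 and 18.7 in the control to 36.8, 91.6, 62.1 and 49.9 in the co-culture, a 4.56-fold rise on the scale of normalized count + 1. All co-culture libraries were above the control range, with co-culture replicate 2 the highest, and the log2 fold change was 2.19 (SE 0.31, adjusted p = 0.000166). Brip1 (ENSMUSG00000034329, chr11:86058138-86201193, minus strand) had 45.3, 40.0, 67.6 and 48.2 in the control and 112.6, 204.3, 186.2 and 172.6 in the co-culture. Again no libraries overlapped between groups, and the log2 fold change was 1.72 (SE 0.20, adjusted p = 3.35e-05).

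Brca1 was the steadiest of these genes in the control, at 18.7 ± 1.4 (SD, n = 4), and reached 60.1 ± 13.4 (SD, n = 4) in the co-culture. Its log2 fold change was 1.61 (SE 0.21, adjusted p = 8.15e-05). Brca2, whose product acts in filament assembly, rose from 38.5 ± 7.0 to 85.4 ± 19.1 (SD, n = 4 each), with a log2 fold change of 1.12 (SE 0.20, adjusted p = 0.000858). Palb2, the bridge between BRCA1 and BRCA2, had means of 31.6 ± 5.9 and 45.3 ± 10.9 (SD, n = 4 each) and a log2 fold change of 0.49 (SE 0.22, adjusted p = 0.116). Its 95% interval, 0.02 to 0.97, lay below the estimate of 1.12 for Brca2. Without co-culture replicate 1, its lowest co-culture library, Palb2 passed with an adjusted p of 0.0354 and a log2 fold change of 0.66.

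The related proteins RAD51B, RAD51C, RAD51D, XRCC2 and XRCC3, called paralogues here, help to build and steady the filament. RAD51AP1 promotes invasion of the duplex, and the translocases RAD54 (encoded by Rad54l) and RAD54B act on the filament and on the joint it makes. The 3 partner genes had the largest changes of this group, and the paralogues were mixed. Rad51ap1 (ENSMUSG00000030346, chr6:126923050-126939587, minus strand) went from 20.6, 16.8, 22.2 and 15.7 in the control to 52.8, 136.7, 123.1 and 90.4 in the co-culture. That 4.87-fold rise was the largest of the 39 genes tested, with a log2 fold change of 2.28 (SE 0.27, adjusted p = 3.39e-05). Rad54l (ENSMUSG00000028702, chr4:116094264-116123690, minus strand) went from 24.7, 33.5, 22.2 and 28.5 to 81.5, 157.7, 129.2 and 103.2, with all co-culture libraries above the control range and a log2 fold change of 2.05 (SE 0.21, adjusted p = 1.31e-05).

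Rad54b was a gene of few counts, 13.7, 9.0, 5.6 and 1.0 in the control and 19.5, 44.3, 28.5 and 16.2 in the co-culture, and the lowest library held 1 read of it. The groups did not overlap and the log2 fold change was 1.98 (SE 0.54, adjusted p = 0.0146), but without co-culture replicate 2 the adjusted p was 0.0522. Among the paralogues Xrcc2 rose by 0.95 (SE 0.26, adjusted p = 0.014) on the log2 scale, and Rad51c by 1.27 (SE 0.37, adjusted p = 0.021) from a control mean of 6.7 ± 2.7 (SD, n = 4), where control replicate 2 and co-culture replicate 1 were both near 10.3. The call for Rad51c was lost without control replicate 1 (adjusted p = 0.0562) and without co-culture replicate 2 (0.0515) or 3 (0.0753).

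Xrcc3 had a log2 fold change of 0.68 (SE 0.36, adjusted p = 0.182), with control replicate 4 above all co-culture libraries. Without that library it passed, with an adjusted p of 0.0434 and a log2 fold change of 1.01. Rad51d was the 1 tested paralogue with an estimate below 0, at 94.8, 107.1, 82.4 and 103.2 in the control and 93.0, 73.6, 88.5 and 70.8 in the co-culture. Its groups overlapped and its log2 fold change was -0.25 (SE 0.14, adjusted p = 0.214), with an interval of -0.55 to 0.06 that lies below the estimates for Xrcc2, Xrcc3 and Rad51c. Rad51b was too low to test, with 0.0, 0.0, 0.9 and 0.0 in the control, where the 0.9 was a single read, and 2.3, 0.8, 3.1 and 2.0 in the co-culture.

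In the Fanconi core complex FANCL is the ubiquitin ligase, UBE2T is the enzyme that hands it ubiquitin, FANCM anchors the complex to DNA, and FANCE makes contact with FANCD2. Ube2t, Fanca, Fancg and Fancm rose, Fance fell, and Fancb, Fancc, Fancf and Fancl did not pass. Ube2t (ENSMUSG00000026429, chr1:134962565-134974162, plus strand) went from 16.5, 7.7, 10.2 and 11.8 in the control to 31.0, 75.8, 25.4 and 32.4 in the co-culture. All co-culture libraries were above the control range, and co-culture replicate 2 was at least 2 times any other library. The log2 fold change was 1.66 (SE 0.34, adjusted p = 0.00269), and without co-culture replicate 2 it was 1.32 (adjusted p = 0.00741).

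Fanca (ENSMUSG00000032815, chr8:123268300-123318576, minus strand), a scaffold subunit, had 8.2, 12.9, 11.1 and 14.7 in the control and 12.6, 36.0, 26.4 and 27.0 in the co-culture. Co-culture replicate 1 lay inside the control range, and the log2 fold change was 1.00 (SE 0.33, adjusted p = 0.0375). This was the weakest call of the 22, lost without control replicate 1 (adjusted p = 0.0969) or 3 (0.069) and without co-culture replicate 2 (0.119), 3 (0.0871) or 4 (0.0942). The subunit gene Fancg rose by 0.82 (SE 0.23, adjusted p = 0.0169) and Fancm by 0.54 (SE 0.16, adjusted p = 0.0219) on the log2 scale, both without overlap between groups. The call for Fancm was lost without control replicate 3 (adjusted p = 0.0568) or co-culture replicate 3 (0.0729).

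Fance (ENSMUSG00000007570, chr17:28313519-28326572, plus strand) was the only one of the 39 tested genes that was called lower. Its normalized counts were 328.4, 335.4, 253.7 and 264.4 in the control and 194.1, 212.5, 194.3 and 180.7 in the co-culture. Every co-culture library was below every control library, and the log2 fold change was -0.59 (SE 0.11, adjusted p = 0.0015), with an interval of -0.82 to -0.35. The call held under all 18 alternative settings. Fancc, another subunit gene with an estimate below 0, had 41.2, 49.0, 49.1 and 42.3 in the control and 31.0, 42.8, 39.7 and 47.2 in the co-culture. Its groups overlapped and its log2 fold change was -0.18 (SE 0.18, adjusted p = 0.489).

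Fancl and Fancf showed no overlap between groups and still did not pass, with log2 fold changes of 0.36 (SE 0.15, adjusted p = 0.0924) and 0.52 (SE 0.20, adjusted p = 0.0676). For the ligase gene Fancl the means were 78.1 ± 9.5 in the control and 100.8 ± 16.7 in the co-culture (SD, n = 4 each), and its interval, 0.04 to 0.68, lay below that of its partner enzyme gene Ube2t, 0.92 to 2.40. Fancb, on the X chromosome, had a log2 fold change of 0.49 (SE 0.31, adjusted p = 0.27).

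FANCD2 and FANCI are the clamp that the core complex ubiquitinates, and USP1 is the enzyme that removes the mark. Fancd2 (ENSMUSG00000034023, chr6:113531682-113597017, plus strand) went from 9.6, 11.6, 8.3 and 11.8 in the control to 29.9, 40.6, 41.7 and 39.1 in the co-culture. The groups stood clear of each other, with a log2 fold change of 1.78 (SE 0.24, adjusted p = 9.98e-05). Its partner Fanci had 0.0, 5.2, 2.8 and 3.9 in the control and 6.9, 27.8, 11.2 and 16.9 in the co-culture, also with no overlap, but its mean of 9.3 was under the filter. With no filter, over 23008 genes, the log2 fold change was 2.19 for Fanci (SE 0.58, adjusted p = 0.014) and 1.3 for Rad51b (SE 0.41, adjusted p = 0.0397), both genes that reached 0 in at least 1 control library, so that these values depend on the pseudocount.

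Usp1 (ENSMUSG00000028560, chr4:98923810-98935543, plus strand) had 498.8, 483.7, 600.9 and 525.8 in the control and 553.6, 685.6, 733.4 and 597.4 in the co-culture. 1 control library reached into the co-culture range, and the log2 fold change was 0.28 (SE 0.10, adjusted p = 0.0538). Usp1 passed without control replicate 3 (adjusted p = 0.0275) or co-culture replicate 1 (0.0218). Its interval, 0.06 to 0.50, lay below that of Fancd2, 1.26 to 2.29.

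MUS81 and EME1 together form a nuclease that cuts joined DNA branches, and SLX4 is the scaffold that holds such nucleases. Eme1 (ENSMUSG00000039055, chr11:94644996-94653964, minus strand) went from 17.9, 6.4, 5.6 and 8.8 in the control to 17.2, 51.8, 25.4 and 24.9 in the co-culture. Control replicate 1 and co-culture replicate 1 met at the border between the groups, and the log2 fold change was 1.55 (SE 0.40, adjusted p = 0.0101). Mus81 (ENSMUSG00000024906, chr19:5482345-5488402, minus strand) had 34.4, 34.8, 30.6 and 32.4 in the control and 42.5, 42.8, 33.6 and 43.2 in the co-culture. Its groups overlapped in 1 co-culture library, and its log2 fold change was 0.28 (SE 0.17, adjusted p = 0.259). Slx4 had a log2 fold change of 0.16 (SE 0.16, adjusted p = 0.498) with an interval of -0.19 to 0.52.

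At the checkpoint, ATR is the kinase of stalled forks and ATM that of double-strand breaks. TOPBP1 activates ATR, claspin (Clspn) brings CHK1 to it, and CHK1 and CHK2 carry the signal on. The activator, the adaptor and both downstream kinase genes rose, and Atr and Atm did not pass. Clspn (ENSMUSG00000042489, chr4:126556935-126593903, plus strand) went from 42.6, 28.4, 47.2 and 37.3 in the control to 120.6, 236.6, 215.7 and 160.5 in the co-culture. The lowest co-culture library was above every control library by more than 2-fold, and the log2 fold change was 2.18 (SE 0.21, adjusted p = 9.25e-06), the smallest adjusted p of the 39 genes. Chek1 (ENSMUSG00000032113, chr9:36708482-36727065, minus strand) went from 19.2, 3.9, 11.1 and 13.8 to 24.1, 69.1, 69.2 and 45.9. Its control libraries were spread widely, the groups did not overlap, and the log2 fold change was 2.09 (SE 0.43, adjusted p = 0.00265).

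Topbp1 had the smallest SE of the 22 genes called higher. It went from 342.8 ± 12.2 to 575.2 ± 76.8 (SD, n = 4 each), with a log2 fold change of 0.74 (SE 0.10, adjusted p = 9.55e-05). Chek2 rose by 0.54 (SE 0.15, adjusted p = 0.017) on the log2 scale, and its call was lost without co-culture replicate 2 (adjusted p = 0.0543) or 4 (0.0537). Atr (ENSMUSG00000032409, chr9:95857597-95951781, plus strand), the 1 checkpoint gene with an estimate below 0, had 137.4, 108.3, 126.9 and 131.7 in the control and 103.4, 100.6, 116.0 and 121.4 in the co-culture. The groups overlapped and the log2 fold change was -0.19 (SE 0.12, adjusted p = 0.27). Atm had 287.1 ± 24.7 and 304.4 ± 23.7 (SD, n = 4 each) and a log2 fold change of 0.09 (SE 0.09, adjusted p = 0.547). The intervals of the kinase genes upstream, -0.12 to 0.29 for Atm and -0.45 to 0.07 for Atr, lay below that of Chek1, 1.16 to 3.02. The interval of Chek2, 0.21 to 0.87, overlapped that of Atm and lay above that of Atr.

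The co-culture libraries did not respond equally. Among the 22 genes called higher, co-culture replicate 1 was the lowest co-culture library for 19, replicate 2 the highest for 14 and replicate 3 the highest for 8. Their median log2 rise over the control mean was 0.92 in co-culture replicate 1, 1.78 in replicate 2, 1.57 in replicate 3 and 1.36 in replicate 4. All 41 genes together summed to 3890.2 to 4291.6 in the control and 4594.0, 6025.0, 6069.0 and 5238.6 in co-culture replicates 1 to 4. The summed normalized count of the 22 was 1127.3 to 1246.3 in the control and 1845.6, 2904.7, 2723.2 and 2337.8 in co-culture replicates 1 to 4. The 16 genes that did not pass summed to 2395.1 to 2787.9 in the control and 2545.1 to 3137.2 in the co-culture. The 22 and the 16 were sorted by their calls in these same libraries, so the contrast between their sums was set by that sorting.

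**Figure D3:**
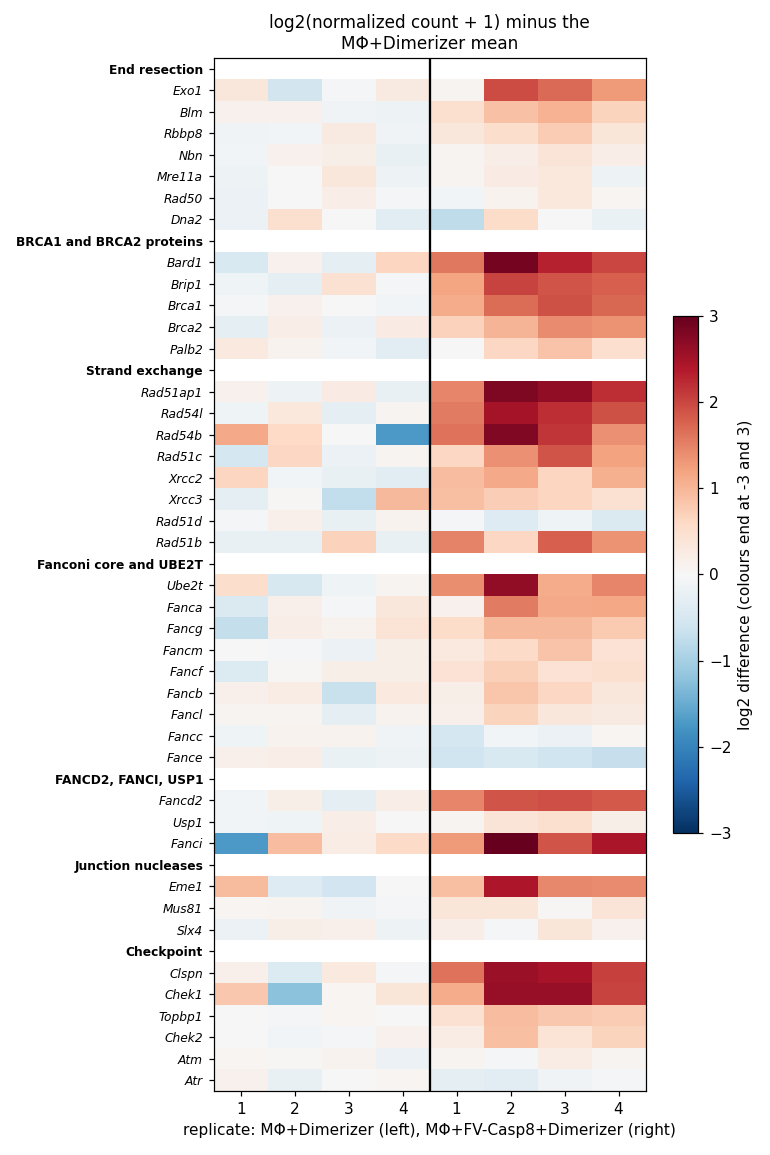
Log2(normalized count + 1) of each gene minus its control mean, with 1 column per library (replicates 1 to 4 of MΦ+Dimerizer, then of MΦ+FV-Casp8+Dimerizer). Co-culture replicate 1 is paler than the other co-culture libraries for most genes called higher, with a median log2 rise of 0.92 against 1.36 to 1.78.

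A reference list of 20 genes of cell division moved with the genes called higher. All 20 were called higher, against 15.0% of all genes tested, with a median log2 fold change of 2.08. The paper had reported cell cycle genes as upregulated in these libraries. The list was chosen with earlier results of these data known. The 20 had a summed normalized count of 1750.3 to 2128.6 in the control and 5446.2, 11799.9, 8990.6 and 6978.3 in co-culture replicates 1 to 4. Their median log2 rise was 1.51, 2.64, 2.12 and 1.83 in the same libraries, so that co-culture replicate 1 was lowest and replicate 2 highest for both lists. The part that more dividing cells had in the change of the repair genes was not tested.

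Other repair and checkpoint genes were taken from fixed lists. Of 137 genes in 8 lists, 131 were tested, 28 were higher and 10 lower, with a median log2 fold change of 0.12. Over all genes tested, 15.0% were higher and 13.7% lower, with a median of 0.01. Among 34 tested genes of homologous recombination outside the 41, 11 were higher and 2 lower (median 0.18). The leading one was Rpa2, a subunit of the protein that coats single strands, which rose by 1.31 on the log2 scale (SE 0.15, adjusted p = 2.57e-05). Gen1, Rmi2 and Psmc3ip, also called higher, had control means of 4.7, 3.5 and 7.1, under 10. These genes passed the filter through their co-culture level. Lower were Zswim7, a partner of SWSAP1 (log2 fold change -0.83, SE 0.22, adjusted p = 0.0119), and Babam2, a member of the BRCA1-A complex (-0.26, SE 0.09, adjusted p = 0.0467). Without co-culture replicate 2 or 3 the genes of this list called higher numbered 6, and 1 of the 2 lower calls was lost without control replicate 1 or 4 or co-culture replicate 1, 3 or 4.

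Of 12 other Fanconi genes tested, 3 were higher. Leading were Uhrf1, which recognizes hemimethylated DNA and has been linked to crosslink sensing, at 1.98 (SE 0.21, adjusted p = 1.68e-05), and Cenps, which binds FANCM, at 1.80 (SE 0.35, adjusted p = 0.00171). Of 16 other checkpoint genes, 6 were higher and 1 lower. Timeless and Tipin, which form the fork protection complex that works with claspin, had log2 fold changes of 1.59 (SE 0.25, adjusted p = 0.000363) and 0.89 (SE 0.15, adjusted p = 0.000669). Mapkapk2, the kinase MK2 downstream of p38, was the lower one, at -0.25 (SE 0.07, adjusted p = 0.0202), and was not called without control replicate 4 or co-culture replicate 1.

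Neighbouring repair pathways were counted in the same way. Over all genes tested the shares were 15.0% higher and 13.7% lower, at which a list of 10 genes would hold few calls. Of 10 genes of non-homologous end joining, which needs no sister chromatid, none was called in either direction by limma, edgeR or DESeq2, and 0 had an unadjusted p under 0.05 by limma, although 1 was called higher without co-culture replicate 1. Of 7 mismatch repair genes 3 were higher, led by Msh6 (0.52, SE 0.12, adjusted p = 0.00499) and Msh3 (0.58, SE 0.15, adjusted p = 0.00865), whose products recognize mismatches. Of 17 base excision repair genes 3 were higher and 2 lower, near the shares over all genes tested. The glycosylase genes Neil3 (3.55, SE 0.41, adjusted p = 3.03e-05) and Ung (1.42, SE 0.29, adjusted p = 0.00235) rose. Neil3 had a control mean of 3.1, under 10, and so passed the filter through its co-culture level. Parp2, whose product senses strand breaks (-0.43, SE 0.09, adjusted p = 0.00412) and the glycosylase gene Neil2 (-0.63, SE 0.17, adjusted p = 0.012) fell.

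Of 18 genes of nucleotide excision repair 2 were higher and 1 lower, shares below the 15.0% and 13.7% over all genes tested. The higher ones were the TFIIH subunit genes Gtf2h1 (0.48, SE 0.10, adjusted p = 0.00366) and Gtf2h5 (0.39, SE 0.09, adjusted p = 0.00389), and the lower was Ercc6 (-0.52, SE 0.18, adjusted p = 0.0484), whose product couples repair to transcription. The call for Ercc6 was lost on leaving out any 1 of control replicates 1, 2 and 4 and co-culture replicates 2, 3 and 4. Of 17 tested targets of p53, a transcription factor that DNA damage activates, 4 were lower and none higher (6 lower and 1 higher at an unadjusted p under 0.05, none higher by edgeR or DESeq2, and 1 higher without co-culture replicate 3). Gadd45a fell by 1.39 on the log2 scale (SE 0.19, adjusted p = 1e-04) and Bbc3, which encodes the death-promoting protein PUMA, fell by 0.56 (SE 0.08, adjusted p = 0.000263). The median log2 fold change of the p53 targets was -0.23.

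**Figure D4:**
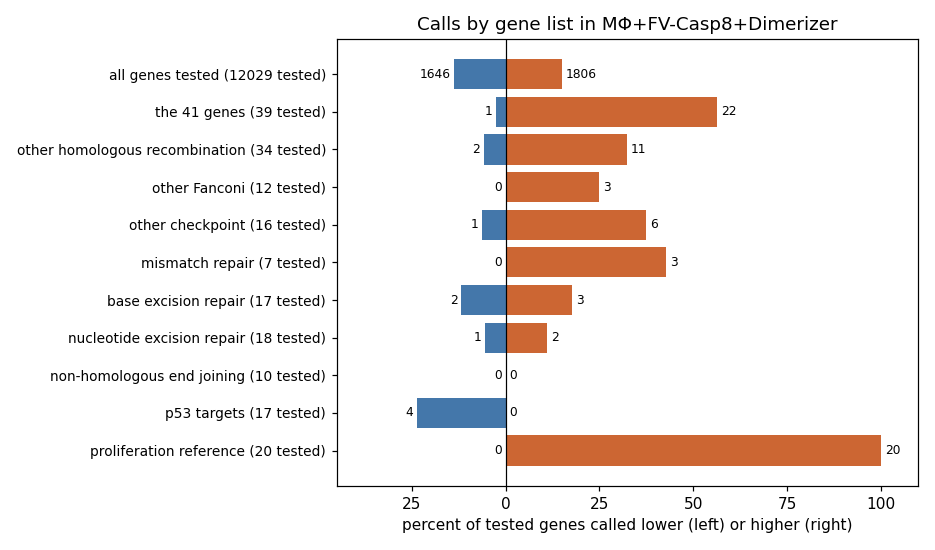
Share of the tested genes of each list called higher (orange, right) or lower (blue, left) (adjusted p under 0.05, co-culture against control), with the number of genes at each bar. The 41 genes (22 higher, 1 lower of 39 tested) lie between all genes tested and the cell division reference, where all 20 were higher.

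Promoters were looked up for all 41 genes, whether or not they were called. RefSeq promoter sequences (GRCm38.p6, 250 bases before to 50 after the start site) were matched for 32 of the 41 genes. A string of the E2F type, the binding motif of the factors that switch on S phase genes (TTTCCCGC, TTTCGCGC, TTTGCCGC or TTTGGCGC on either strand), was present in 7 of the 32 (21.9%). It was in 2.60% of all 27025 promoters, 4.90% of those of the genes tested here and 6.84% of those of all genes called higher. The 7 were Bard1, Brca2, Rad51c, Fancg, Chek2, Topbp1 and Clspn, all called higher, which makes 7 of 17 matched genes called higher and none of the 13 matched genes that were tested and not called higher. In 4 of the 7 the string lay before the gene's start in both annotations and is shown in capitals with up to 30 bases on each side, on the coding strand, 5′ to 3′, with GRCm38 coordinates.
Bard1, chr1:71103147-71103211, minus strand: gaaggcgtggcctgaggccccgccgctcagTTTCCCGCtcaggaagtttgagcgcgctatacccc
Brca2, chr5:150522423-150522490, plus strand: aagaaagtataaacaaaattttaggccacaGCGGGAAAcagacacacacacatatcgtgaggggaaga
Chek2, chr5:110839801-110839868, plus strand: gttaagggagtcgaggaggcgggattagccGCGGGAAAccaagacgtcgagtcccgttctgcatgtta
Topbp1, chr9:103305168-103305214, plus strand: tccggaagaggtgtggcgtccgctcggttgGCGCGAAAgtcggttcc

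The capitals begin 209 bases before the RefSeq start site in Bard1, 168 in Brca2, 152 in Chek2 and 129 in Topbp1. The same letters, GCGGGAAA, stand in Brca2 and Chek2, and are the reverse complement of the TTTCCCGC in Bard1. The CCAAT box, which the factor NF-Y binds, was in 62.5% of the 32 promoters and 42.7% of those of genes tested, and in 58.8% and 69.2% of the matched genes called higher and not called higher. The CHR letters of G2 and M phase genes (TTTGAA or TTCGAA, either strand) were in 12.5% of the 32 and 16.5% of those of genes tested. None of the E2F strings contains CCAAT or a CHR string. These matches are descriptions of letters, and binding was not measured.

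The labelled cell type was checked with marker lists. The shares called over all genes tested were 15.0% higher and 13.7% lower. Macrophage markers summed to 204883.7 to 213035.9 in the control and 236167 to 265227.9 in the co-culture, with 5 of 12 tested higher and 2 lower. Fibroblast markers, of which 9 of 14 tested were lower and 1 higher, summed to 20213.7 to 29579.9 and 10916.3 to 19309.8. Most of the fibroblast sum was Fn1, at 13074.9 to 19239.4 in the control and 7843.1 to 14677.9 in the co-culture. Lyz2 likewise made up most of the macrophage sum, and Mmp8 most of the neutrophil sum given below. The NIH 3T3 cells are also of mouse, so their RNA and that of the macrophages cannot be told apart by sequence. Summed levels were 151.3 to 217.1 against 58 to 102.9 for mesothelial markers (3 of 3 tested lower), 2052.9 to 5232.8 against 1020.3 to 1751.5 for neutrophil markers (2 of 3 lower, Ly6g at 0 in all libraries) and 76.9 to 306.4 against 1 to 22.5 for red cell markers (2 of 2 lower). Ranges overlapped for B cell markers (1644.5 to 8751.2 and 4152.8 to 9978.3, 2 of 11 higher and 1 lower), mast cell markers (663 to 3916.2 and 569.2 to 1560.3, 2 of 9 lower), T and NK cell markers (33.5 to 115 and 56.3 to 128.2, 0 of 3 called) and dendritic cell markers (396.3 to 622.5 and 350.7 to 965.9, 1 of 4 higher and 2 lower). Hbb-bs and Hba-a1, the red cell genes tested, reached at most 17.3 and 3.8 in any co-culture library. Lrrn4 of the mesothelial markers reached at most 7.5 there, and Clec9a of the dendritic cell markers 6.9. Such genes passed the filter through their control level, which favours a lower call. The part of these cell types in the change of the repair genes was not tested.

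For 10 of the 41 genes the last 500 bases overlap a gene on the other strand, and the sources used here do not say whether the counting used strand. Among the genes called higher these were Rad54l, Fanca, Fancd2 and Eme1. Their overlapping neighbours did not pass where tested, with log2 fold changes of -0.10 for Lrrc41 beside Rad54l, -0.33 for Zfp276 beside Fanca and 0.07 for Lrrc59 beside Eme1, while Fancd2os beside Fancd2 had a mean of 0.1. Klc1, beside Xrcc3, was called higher (0.35, adjusted p = 0.00611) and Polg, beside Fanci, lower (-0.29, adjusted p = 0.0196). The others were Fancc, Fancl, Mus81 and Atr.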

How the data were processed

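The authors prepared QuantSeq 3′ mRNA libraries with unique molecular identifiers from macrophage RNA, and the deposited values are normalized counts per gene (a signal unit). The submitters' processing notes name STAR, HTSeq, DESeq2 and the build GRCm38. The deposited normalized counts were whole reads divided by a median-of-ratios size factor, since 100% of values became whole (within 0.001) when multiplied back, and the factors matched those computed over all 8 libraries. They held no columns of other samples. Sums of recovered reads were 5904441 to 11506556 per library (median 7983311).

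Genes were located with GENCODE M21 (99.1% of identifiers). limma 3.58.1 (R 4.3.3) was fitted with a trend to log2(normalized count + 1) of genes with a mean of at least 10, control against co-culture, without a replicate term, with two-sided tests. edgeR 4.0.16 (quasi-likelihood) and DESeq2 1.42.0 on the recovered reads were alternatives. On simulated data of 4 against 4 libraries with 12007 genes tested, limma recovered 38.8% of 1.5-fold, 84.4% of 2-fold and 98.4% of 4-fold changes. It made 8 false calls. The spread between simulated libraries was assumed and not estimated from the real ones, so recovery in the real data may differ. No 2 libraries of 1 group were duplicates (12 pairs, chi-square per degree of freedom 4.32 or more).

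Values in all libraries were given for the 2 genes of each role with the largest absolute log2 fold change, for genes called lower and for those with an estimate against the rest of their role. Other lists were represented by the 2 genes of smallest adjusted p in each direction. 1 of these is not reported here. In the pathway lists 3 symbols could not be matched, and 2 of these were older names of Cenpx and Cenps, which were listed as well. The 41 genes and the lists were chosen with earlier results of these data known.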

Additional observations from a re-analysis of the deposited data

Results flagged for a closer look

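In each gene and group the library at either end was compared with the others by Dixon's criterion, and 5 of 82 gene and group pairs were marked. Chance marks about 1 in 20 groups. For Rbbp8, control replicate 3 stood apart at 373.1, against 288.6 to 292.8 in the other control libraries. For Rad51b, control replicate 3 held 0.9 where the other control libraries held 0. For Fancl, control replicate 3 was low at 63.9, against 82.4 to 83.5. For Ube2t, co-culture replicate 2 was high at 75.8, against 25.4 to 32.4. For Mus81, co-culture replicate 3 was low at 33.6, against 42.5 to 43.2. The control values of Rbbp8, Rad51b and Fancl that stood apart came from the same library. Without these libraries the calls of the 4 tested genes did not change.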

How the results depend on the processing

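Under the 18 alternatives (pseudocount, filter, scaling, tool, replicate block, threshold and leaving out each library) 13 of the 22 genes called higher and the 1 called lower kept their call wherever they were tested, since genes of low mean left the fit with a mean above 30, and no call changed direction. At an adjusted p under 0.01, 13 genes of the 41 were higher, as were 1104 of all genes tested (968 lower) and 18 genes of the other repair lists (5 lower). Leaving out 1 library gave 17 to 24 of the 41 genes higher and a median log2 fold change of 0.59 to 0.73. edgeR and DESeq2 both called 22 higher and 1 lower, with no filter 23 were higher, and with a mean above 30 there were 15. Fanca did not pass with no filter (adjusted p = 0.0721). The median of all genes moved by at most 0.02 (log2) with scaling. The other homologous recombination genes called higher numbered 6 without co-culture replicate 2 or 3, against 11.

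Same-numbered control and co-culture libraries had correlated deviations (r = 0.0884, 0.341, 0.293 and 0.194, and each of the 8 correlated best with its own number), but 1 value was under 0.1 and the labels do not say that a number marks 1 animal, so the samples share only a number. With a replicate block limma called 23 of the 41 genes higher and 1 lower, with a median log2 fold change of 0.68, and 2293 of all genes higher and 2118 lower. The added gene was Usp1 (adjusted p = 0.00899). With edgeR and the block, 23 of the 41 were higher as well. Depth limits the genes of few reads, since 2 of 41 could not be tested.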
